A study of Homo sapiens with 4 samples.

Results

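The genes described here are 10 members of the immune checkpoint and costimulatory group: VSIR, CD86, CD80, CD274, PDCD1LG2, CD47, SIRPA, HAVCR2, ICOSLG and CD276. They are 10 of the 19775 genes named on the array, and 34 of its 41097 probe sets with 1 gene symbol belong to them. The group was chosen by the measured values themselves, because VSIR differed strongly between the cell lines compared here, so every difference of its members is given as a description. The array carries several probe sets for each member, and all of them are given.

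RNA was measured in U937, a human myelomonocytic leukaemia cell line, on 4 HG-U133 Plus 2.0 oligonucleotide arrays. In the clone U937-AE the cells carry AML1/ETO with an HA tag, the fusion protein of the 8;21 translocation of acute myeloid leukaemia, behind the zinc-inducible mouse metallothionein promoter. U937-Mt is a bulk population that carries the empty vector. Both lines received 100 µM ZnSO4 for 8 hours, so the zinc is shared, while the vector and the origin of the cells differ. For each line RNA from 3 extractions was combined in 1 pool, and the pool was hybridized to 2 arrays, 1 and 2 in what follows. The arrays of a line are therefore copies of 1 pool, and no test between the lines was possible. The fusion protein cannot be told apart from the choice of a clone or from the handling of each pool. In a population of cells, fewer cells that express a gene and less RNA per cell cannot be told apart either.

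Checkpoint and costimulatory molecules are surface proteins through which antigen presenting cells set the strength of a T cell response. Members of the B7 family on the presenting cell bind receptors of the CD28 family, and the outcome is activation or restraint depending on the receptor. A second axis joins CD47, present on most cells, to SIRPA on phagocytes and restrains the uptake of the CD47-bearing cell. Monocytes and macrophages, the lineage that U937 cells resemble, are main carriers of VSIR, SIRPA and CD86.

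The promoters of VSIR and CD86 are shown because these members were called lower in U937-AE and AML1, a RUNX protein, and HEB, an E-protein, bind short motifs that can be looked for in them. Each window runs from 250 bases before to 50 bases after an annotated start (RefSeq, GRCh38.p14), on the strand of the gene: VSIR at chr10:71773471-71773770 on the minus strand, and CD86 at chr3:122055112-122055411 and chr3:122077534-122077833 on the plus strand. Capitals mark the RUNX motif TGTGGT and the E-box CANNTG, both searched on both strands.
VSIR promoter: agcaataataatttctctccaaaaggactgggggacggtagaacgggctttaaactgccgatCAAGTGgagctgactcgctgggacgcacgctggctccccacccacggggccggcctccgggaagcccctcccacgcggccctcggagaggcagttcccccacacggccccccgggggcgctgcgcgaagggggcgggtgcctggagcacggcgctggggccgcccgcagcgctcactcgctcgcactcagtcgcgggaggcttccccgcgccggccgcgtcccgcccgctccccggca
CD86 promoter, first start: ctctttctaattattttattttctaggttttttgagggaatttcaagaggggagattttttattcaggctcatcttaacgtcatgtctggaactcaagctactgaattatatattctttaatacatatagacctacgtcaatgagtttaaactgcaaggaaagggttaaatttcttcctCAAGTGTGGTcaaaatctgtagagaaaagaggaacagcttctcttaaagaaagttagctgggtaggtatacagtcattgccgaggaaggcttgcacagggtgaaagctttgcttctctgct
CD86 promoter, second start: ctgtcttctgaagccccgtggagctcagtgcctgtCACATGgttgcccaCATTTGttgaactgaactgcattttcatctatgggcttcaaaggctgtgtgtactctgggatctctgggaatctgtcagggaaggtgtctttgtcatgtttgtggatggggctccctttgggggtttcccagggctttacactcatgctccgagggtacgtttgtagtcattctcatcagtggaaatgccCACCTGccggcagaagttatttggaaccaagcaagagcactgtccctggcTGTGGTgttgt
The VSIR window held 1 E-box, CAAGTG at position -188 from the start, and no TGTGGT. In the first CD86 window the E-box CAAGTG at position -71 shared bases with TGTGGT at position -67. The second CD86 window held 3 E-boxes, at positions -215, -201 and -11, and TGTGGT at position 40. RefSeq windows were matched for 7 members, without SIRPA, PDCD1LG2 and HAVCR2. CD80 and CD274 had 1 E-box each and no RUNX motif, and CD47, ICOSLG and CD276 had neither. Of all 35116 windows of this length, 13.07% held the RUNX motif and 68.68% held an E-box, so the E-box was the common state. A match is a stretch of letters and not a measured binding site, and the binding arrays of the study were not analysed here.

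A few facts of the arrays bear on all values. Each signal was raised to a floor, the median signal of its array, which stood at 119.5 and 129.7 for U937-AE and at 146.8 and 153.6 for U937-Mt. A probe set at the floor on every array has a log2 difference of -0.27 for this reason alone. Each U937-AE array was compared with each U937-Mt array, and a probe set or gene was called where the 4 ratios all passed 1.5-fold the same way. A gene was represented by its brightest probe set and is said to be measured when the mean log2 signal of at least 1 pool reached the mean log2 floor of its arrays. RUNX1T1, the ETO part of the fusion, gave 1361.5 and 1299.0 on the U937-AE arrays against 8.6 and 7.6 on the U937-Mt arrays with 1 of its 7 probe sets, and was thus higher in the line labelled as carrying the fusion. Log2 signals of the copy arrays correlated across probe sets at 0.935 in U937-AE and 0.919 in U937-Mt, and those of different lines at 0.910 to 0.917. Of the 11 monocytic markers matched, 5 were at the floor on all arrays: CD14, CD163, FCGR1A, ITGAX and CD36. PTPRC and CD4 were above the floor on all arrays, and CD33 and CD68 had no matched probe set. The summed signal of the 11 monocytic markers matched was 15058.0 and 14126.5 on the U937-AE arrays against 28057.2 and 26616.1 on the U937-Mt arrays. MPO, LYZ and ITGAM were called lower, against 4.0% of all genes, and PTPRC was called higher, against 1.70% of all genes. LYZ was not called once the arrays were scaled to the spike-ins or to 1 median, and PTPRC was not called with quantile normalization. The second probe sets of LYZ and ITGAM were not called, at log2 differences of -0.93 and 0.06. MPO carried that sum: the other 10 markers together gave 13160.0 and 12568.6 on the U937-AE arrays, against 11940.5 and 12025.3 on the U937-Mt arrays. PTPRC was the largest part of that remainder, with 8182.6 and 7830.9 on the U937-AE arrays, against 5112.7 and 5148.8 on the U937-Mt arrays. CD4, LYZ, CSF1R and ITGAM each read lower on both U937-AE arrays than on both U937-Mt arrays, and the rest were at the floor. Of all genes, 34.5% likewise had both U937-AE signals below both U937-Mt signals. For CD4 the separation was small, with 3072.5 on a U937-AE array against 3086.5 on a U937-Mt array. The part of these markers in the values below was not tested.

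Of the 10 genes, 3 were called lower in U937-AE (VSIR, SIRPA and CD86), against 4.0% of all genes, and none was called higher, against 1.70% of all genes. The other 7 were not called. By probe set, 8 of 34 were called lower, against 3.07% of all probe sets, and none was called higher, against 1.52% of all probe sets. VSIR alone accounts for 2 of the 8, and its difference chose the group, so these shares are read as a description. Of the 34 probe sets, 19 were measured, the 8 called among them, and 12 never exceeded the floor. Among all measured probe sets, 1262 of 23499 were called lower and 624 higher. Among all measured genes, 791 of 12934 were called lower and 336 higher. The median log2 difference was -0.41 over the 10 genes and -0.27 over all genes, the latter being the value set by the floor alone. Over measured genes only, it was -0.54 for the 9 members and -0.10 for all.

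The scale of the arrays matters for weak differences. The 18 probe sets of the spike-ins, the control RNAs BioB, BioC, BioDn and CreX, had 1.27-fold more signal in the U937-Mt hybridizations. Scaling to them added 0.34 to every log2 difference. The median of all genes then stood at 0.07 in place of -0.27, and 1.47% of all genes were called lower and 6.92% higher. With the arrays set to 1 median, 1.96% were called lower and 4.61% higher. VSIR and SIRPA were called lower on each of these scales, and CD86 on neither.

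**Figure D1:**
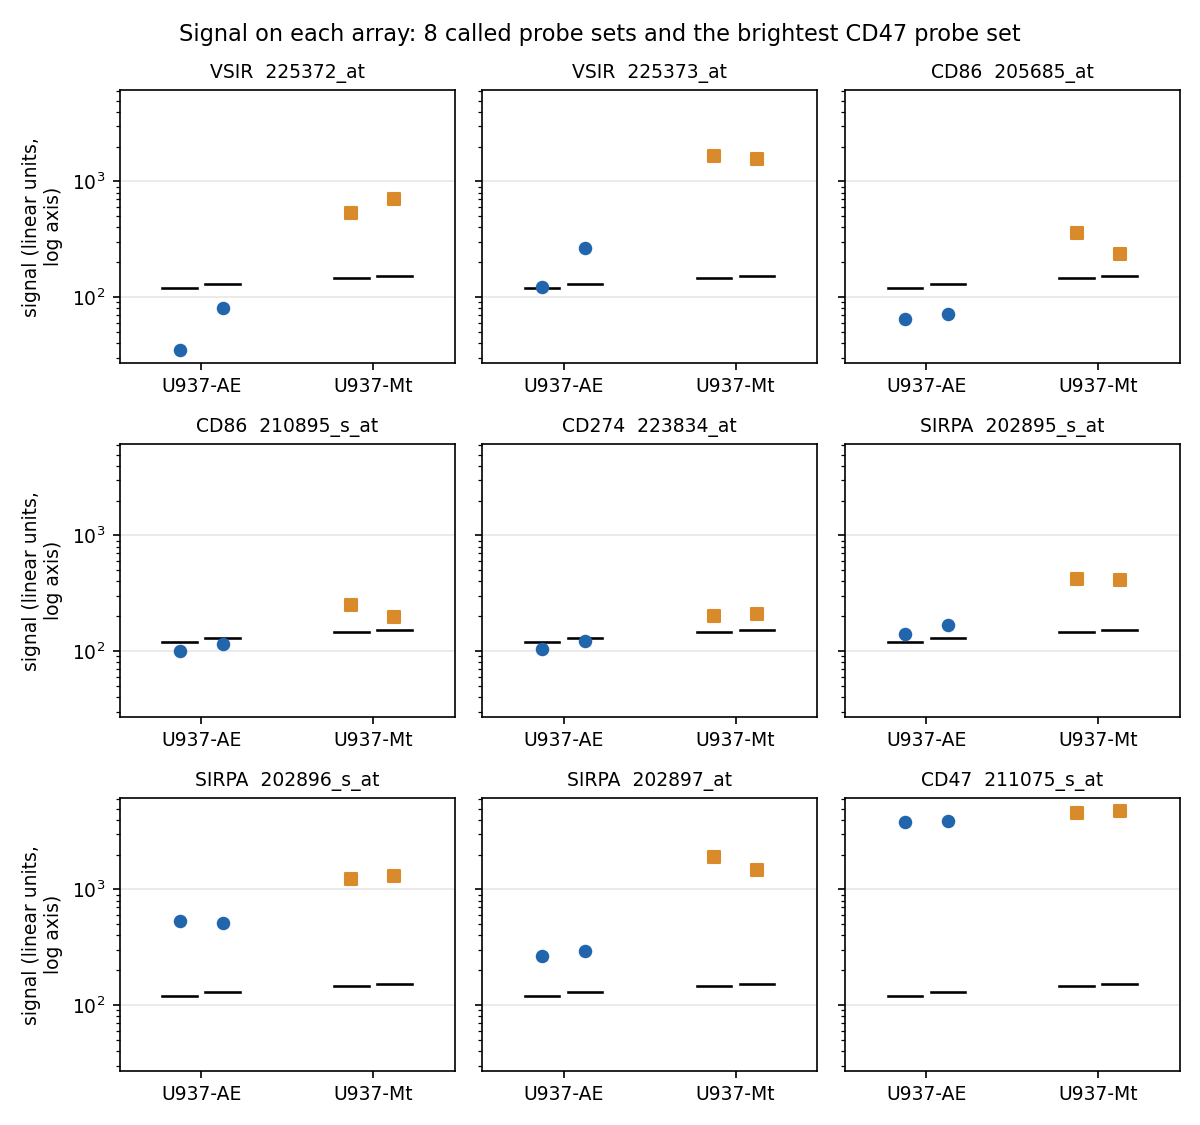
Signal on each array (log axis) for the 8 probe sets called lower and the brightest CD47 probe set, with U937-AE arrays as circles left of U937-Mt arrays as squares, and each array's floor as a short bar. The U937-AE circles lie below the U937-Mt squares in every panel, by far more for VSIR than for CD47.

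VSIR encodes VISTA, an inhibitory molecule related to the B7 family that is carried mainly by myeloid cells. Its probe set 225373_at read 121.6 and 264.2 on the U937-AE arrays, against 1673.0 and 1556.1 on the U937-Mt arrays. Both U937-AE arrays were far below both U937-Mt arrays, although the U937-AE copies were themselves 2.17-fold apart. The lower U937-AE value stood just above the floor of its array, 119.5. The log2 difference was -3.17 ± 0.65 (SD of the 4 comparisons), 9.0-fold lower, with single comparisons from 5.89-fold to 13.8-fold. The second probe set, 225372_at, read 34.7 and 80.0 on the U937-AE arrays against 537.5 and 701.0 on the U937-Mt arrays. Both U937-AE values were under the floor, so the gene was at least 4.93-fold lower by this probe set (4.14-fold to 5.87-fold). Of the 791 genes called lower, 8 lay further down than VSIR, which is a minimum because the floor makes the differences of many called genes lower bounds.

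VSIR is a nested gene: it lies within CDH23, a cadherin gene, on chromosome 10. CDH23 itself was at the floor on all 4 arrays, with 24.2 and 79.8 in U937-AE cells, against 34.3 and 32.7 in U937-Mt cells. PSAP, a neighbour that encodes the saposin precursor, read 3262.6 and 4001.5 in U937-AE cells, against 2941.7 and 3750.3 in U937-Mt cells, and its arrays overlapped. Across all members there were 21 other genes that overlapped or stood next to one, and 19 of them were matched to a probe set. None of these 19 was called, against 4.0% of all genes called lower and 1.70% called higher. At these shares, 19 genes without a call do not stand out. CDH23, ILDR1, SIRPG, PDYN, HAVCR1 and DNMT3L never exceeded the floor, so no call was possible for them. Whether the differences are confined to the members was not tested.

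SIRPA encodes the phagocyte receptor for CD47, and all 3 of its probe sets were called lower in U937-AE. Probe set 202896_s_at read 535.5 and 513.6 on the U937-AE arrays, against 1231.4 and 1315.9 on the U937-Mt arrays, 2.43-fold lower (2.30-fold to 2.56-fold). Probe set 202897_at read 266.6 and 295.5 in U937-AE cells, against 1919.9 and 1470.5 in U937-Mt cells, 5.99-fold lower (4.98-fold to 7.20-fold). Probe set 202895_s_at read 140.5 and 169.6 in U937-AE cells, against 417.9 and 414.2 in U937-Mt cells, 2.70-fold lower (2.44-fold to 2.97-fold). Because all 3 were called, the lines could not overlap with any of them. The difference by 202897_at was larger in every comparison than any by the other 2. The _s_at suffix marks probes that can bind more than 1 transcript, and SIRPA has close paralogs. In the SIRP family, SIRPB1 and SIRPG were at the floor on all arrays, SIRPD read 321.0 and 281.9 in U937-AE cells, against 245.5 and 359.3 in U937-Mt cells, and SIRPB2, given below, was called lower. The part of cross-binding in the SIRPA values was not tested.

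CD47, the ligand of SIRPA, was above the floor on all arrays with 6 of its 7 probe sets and was not called with any of them. Probe set 211075_s_at, which represents the gene, read 3838.9 and 3931.6 on the U937-AE arrays against 4572.9 and 4777.7 on the U937-Mt arrays, a log2 difference of -0.27. Probe set 213857_s_at read 4094.1 and 3794.7 in U937-AE cells, against 3910.6 and 3921.8 in U937-Mt cells, with overlap. Probe set 226016_at went the other way, with 2425.5 and 2062.7 in U937-AE cells, against 1946.4 and 1961.8 in U937-Mt cells, a log2 difference of 0.19. The 6 probe sets above the floor gave log2 differences from -0.45 to 0.19, so their signs were mixed, and 213856_at was at the floor. The value of -0.27 for 211075_s_at depended on the scale of the arrays. It stood at 0.00 with the arrays set to 1 median, at 0.08 after scaling to the spike-ins and at -0.365 with quantile normalization.

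CD86 and CD80 are the B7 ligands of CD28 and CTLA4 that costimulate T cells. CD86 probe set 205685_at read 65.3 and 72.0 on the U937-AE arrays against 359.1 and 237.8 on the U937-Mt arrays, at least 2.35-fold lower (1.83-fold to 3.01-fold). Probe set 210895_s_at, which represents the gene, read 99.3 and 116.3 in U937-AE cells, against 252.0 and 197.1 in U937-Mt cells, at least 1.79-fold lower (1.52-fold to 2.11-fold). Both U937-AE arrays were under the floor with both, and the lowest comparison of the second stands just past the 1.5-fold limit. The third probe set, 205686_s_at, was at the floor on all arrays, with 8.6 to 82.7.

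CD80 did not show this difference: its brightest probe set, 207176_s_at, read 256.9 and 277.8 on the U937-AE arrays against 357.7 and 218.7 on the U937-Mt arrays. The U937-AE values lay between the U937-Mt values, and the log2 difference was -0.07 ± 0.41 (SD of the 4 comparisons). The other 2 CD80 probe sets were at the floor on all arrays. ICOSLG, which costimulates through ICOS, read 168.2 and 334.9 in U937-AE cells, against 144.1 and 404.1 in U937-Mt cells with 213450_s_at. Its copies differed by 1.99-fold in U937-AE and 2.80-fold in U937-Mt, and the log2 difference of -0.04 ± 1.02 (SD of the 4 comparisons) leaves a wide range. With the other 4 ICOSLG probe sets the U937-AE arrays were at the floor, and none was called.

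CD274 and PDCD1LG2 encode the PD-1 ligands PD-L1 and PD-L2 and are neighbours on chromosome 9. The 2 CD274 probe sets disagreed. Probe set 223834_at read 104.0 and 122.6 on the U937-AE arrays against 200.7 and 210.2 on the U937-Mt arrays, at least 1.65-fold lower (1.55-fold to 1.76-fold). Probe set 227458_at, which represents the gene, read 153.7 and 144.9 in U937-AE cells, against 119.2 and 215.0 in U937-Mt cells, and the U937-AE values lay between the U937-Mt values. The gene was therefore not called, at a log2 difference of -0.25. No CD274 signal exceeded 215.0. Both PDCD1LG2 probe sets were at the floor on all arrays, with 7.8 to 51.9, and no fold change can be given.

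CD276, also named B7-H3, read 186.0 and 141.6 on the U937-AE arrays against 344.1 and 217.5 on the U937-Mt arrays with 224859_at. The lines did not overlap, but 34.5% of all genes likewise had both U937-AE signals below both U937-Mt signals. The comparisons ran from 1.17-fold to 2.43-fold lower and the gene was not called, at a log2 difference of -0.75. Its other 2 probe sets were at the floor. HAVCR2 encodes TIM-3, an inhibitory receptor of T cells and myeloid cells, and read 210.7 and 301.7 in U937-AE cells, against 472.5 and 286.2 in U937-Mt cells with 1554285_at. The second U937-Mt array lay between the U937-AE values, and the log2 difference of -0.54 ± 0.51 (SD of the 4 comparisons) was not called. Another 2 HAVCR2 probe sets stayed at the floor throughout, and 1555628_a_at exceeded it on 1 U937-AE array, with 148.8.

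**Figure D2:**
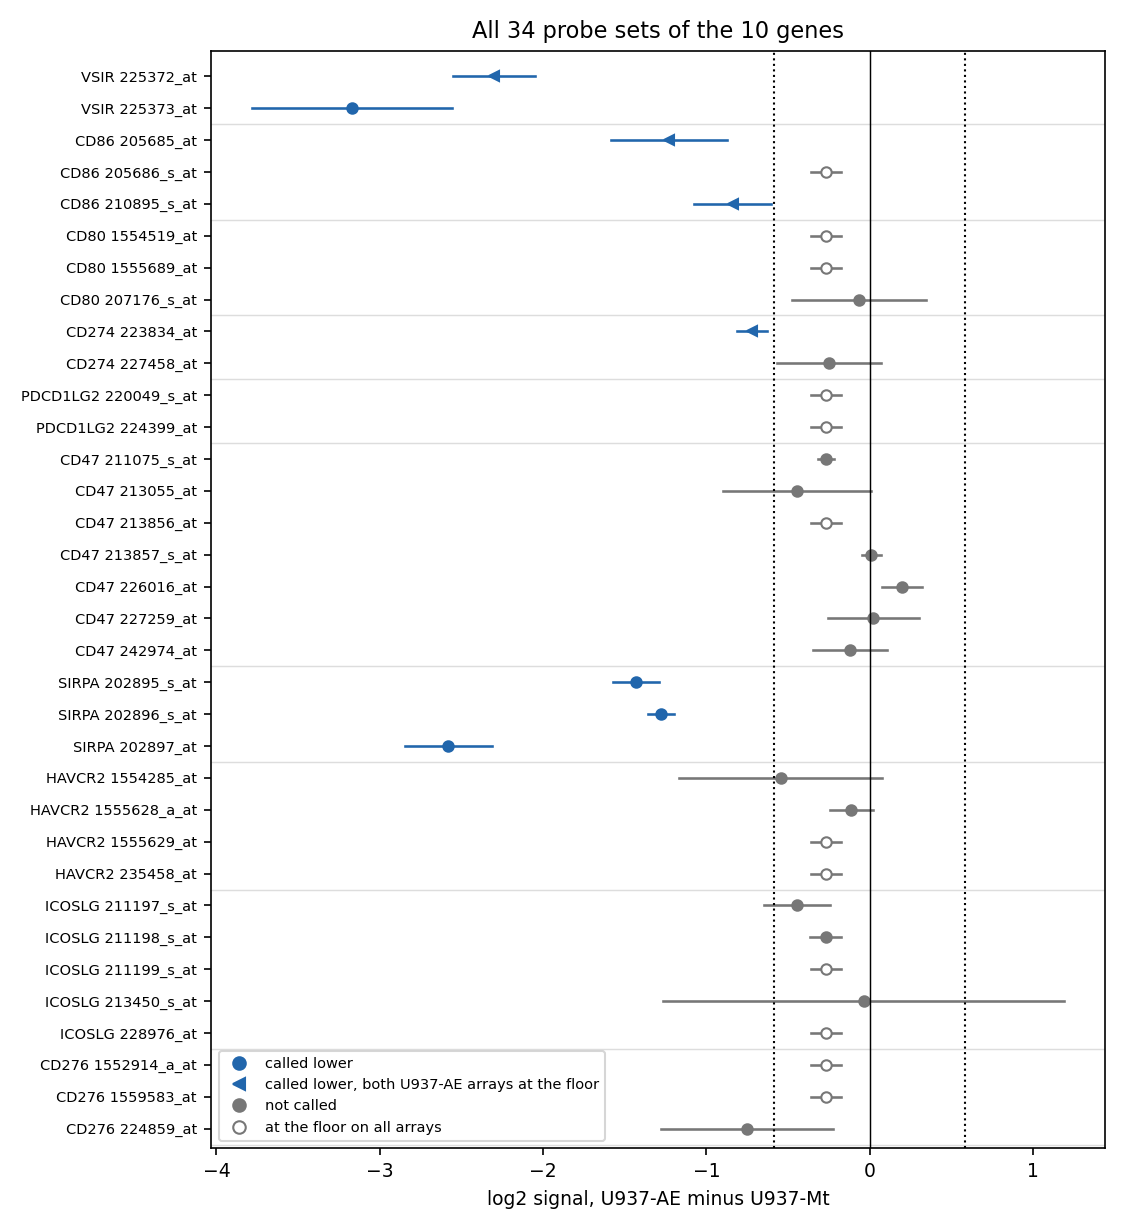
Log2 difference, U937-AE minus U937-Mt, of all 34 probe sets after the floor. Points are means and lines run over the 4 comparisons between arrays, dotted lines mark 1.5-fold, triangles mark bounds and open circles mark probe sets at the floor on all arrays. The 8 probe sets called lower belong to VSIR, CD86, CD274 and SIRPA.

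Receptors and partners of these ligands were looked at in a list of 17 genes, of which 16 were on the array. PDCD1 had no matched probe set, 9 genes were at the floor on all arrays, 2 were called lower and none was called higher. Over all genes, 4.0% were called lower and 1.70% higher, and these shares also stand beside the counts of the lists below. SELPLG encodes PSGL-1, an adhesion molecule that also binds VISTA, and read 112.0 and 426.7 on the U937-AE arrays against 2318.8 and 2225.2 on the U937-Mt arrays. It was 10.1-fold lower (5.21-fold to 19.4-fold), with 1 U937-AE array at the floor, and both of its probe sets were called. LILRB2, an inhibitory receptor of myeloid cells, read 32.0 and 21.5 in U937-AE cells, against 222.9 and 262.8 in U937-Mt cells, at least 1.94-fold lower. Neither CD28 nor IGSF11, another partner of VISTA, exceeded the floor on any array. CTLA4 was not called, at a log2 difference of -0.33.

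Of the 15 genes of the SIRP family and of CD47-SIRPA signalling, 4 were called lower and none higher. Over all genes these shares were 4.0% and 1.70%, and the median log2 difference of the list was -0.29. PTPN6, the phosphatase SHP-1 that SIRPA recruits, read 891.4 and 894.6 on the U937-AE arrays against 2336.2 and 2413.0 on the U937-Mt arrays, 2.66-fold lower (2.61-fold to 2.71-fold). PTPN11, the related SHP-2, read 8825.2 and 8755.6 in U937-AE cells, against 8249.6 and 8072.1 in U937-Mt cells and was not called, so the 2 phosphatases of the pathway stood apart. FYB1, an adaptor of immune cell adhesion, read 241.2 and 397.3 in U937-AE cells, against 896.1 and 1085.0 in U937-Mt cells, 3.19-fold lower. TYROBP, the DAP12 adaptor of activating SIRP receptors, read 102.6 and 111.5 in U937-AE cells, against 392.4 and 350.9 in U937-Mt cells, at least 2.98-fold lower. The receptor gene SIRPB2 read 16.8 and 8.0 in U937-AE cells, against 226.0 and 353.6 in U937-Mt cells, at least 2.27-fold lower.

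Of the 19 other B7 family and checkpoint ligands, 1 was called lower, against 4.0% of all genes, and none higher. This was CD24, a ligand of the inhibitory receptor SIGLEC10, with 169.8 and 195.7 on the U937-AE arrays against 325.6 and 299.1 on the U937-Mt arrays. Its values were 1.71-fold apart, and it has 6 probe sets, of which 1 was called. Of 14 other costimulatory and adhesion ligands of antigen presenting cells, 3 were called lower and 1 higher, against 4.0% and 1.70% of all genes. CD48, a ligand of CD2 and CD244, was the one called higher, with 1331.1 and 1359.2 in U937-AE cells, against 296.5 and 354.8 in U937-Mt cells, 4.15-fold higher (3.75-fold to 4.58-fold).

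The ligands called lower were TNFSF14 (LIGHT), ALCAM, which binds CD6, and TNFSF4 (OX40 ligand). TNFSF14 read 121.5 and 215.6 on the U937-AE arrays against 425.6 and 454.7 on the U937-Mt arrays, 2.72-fold lower. ALCAM read 127.1 and 147.4 in U937-AE cells, against 436.3 and 273.5 in U937-Mt cells, 2.52-fold lower. The other 2 ALCAM probe sets, and the second probe sets of TNFSF14, LILRB2 and CD48, were at the floor on all arrays. TNFSF4 read 632.2 and 561.1 in U937-AE cells, against 1068.8 and 1043.8 in U937-Mt cells, 1.77-fold lower. That the lines did not overlap for these ligands follows from the call rule. After scaling to the spike-ins, CD24, LILRB2, SIRPB2, TNFSF14, ALCAM and TNFSF4 were no longer called, while SELPLG, PTPN6, FYB1, TYROBP and CD48 were. On that scale 1 gene of the receptor list and 1 of the SIRP list were called higher, against 6.92% of all genes. The median log2 difference of the SIRP list was then 0.05.

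Of 19 regulators of PD-L1 expression on the array, 1 was called lower, against 4.0% of all genes, and none higher. Their median log2 difference was 0.08. SPOP, the ubiquitin ligase adaptor that targets PD-L1 for destruction, read 2366.9 and 2511.5 on the U937-AE arrays against 4128.9 and 3920.7 on the U937-Mt arrays, 1.65-fold lower, and was not called after scaling to the spike-ins. JAK2, a kinase of interferon signalling, was not called, at a log2 difference of 0.15. None of the 16 genes of MHC class II antigen presentation was called. CIITA, their master regulator, read 201.5 and 232.8 in U937-AE cells, against 81.5 and 184.3 in U937-Mt cells, a log2 difference of 0.40. HLA-DRA stayed at the floor throughout. After scaling to the spike-ins 1 regulator of PD-L1 and 2 MHC class II genes were called higher, against 6.92% of all genes.

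**Figure D3:**
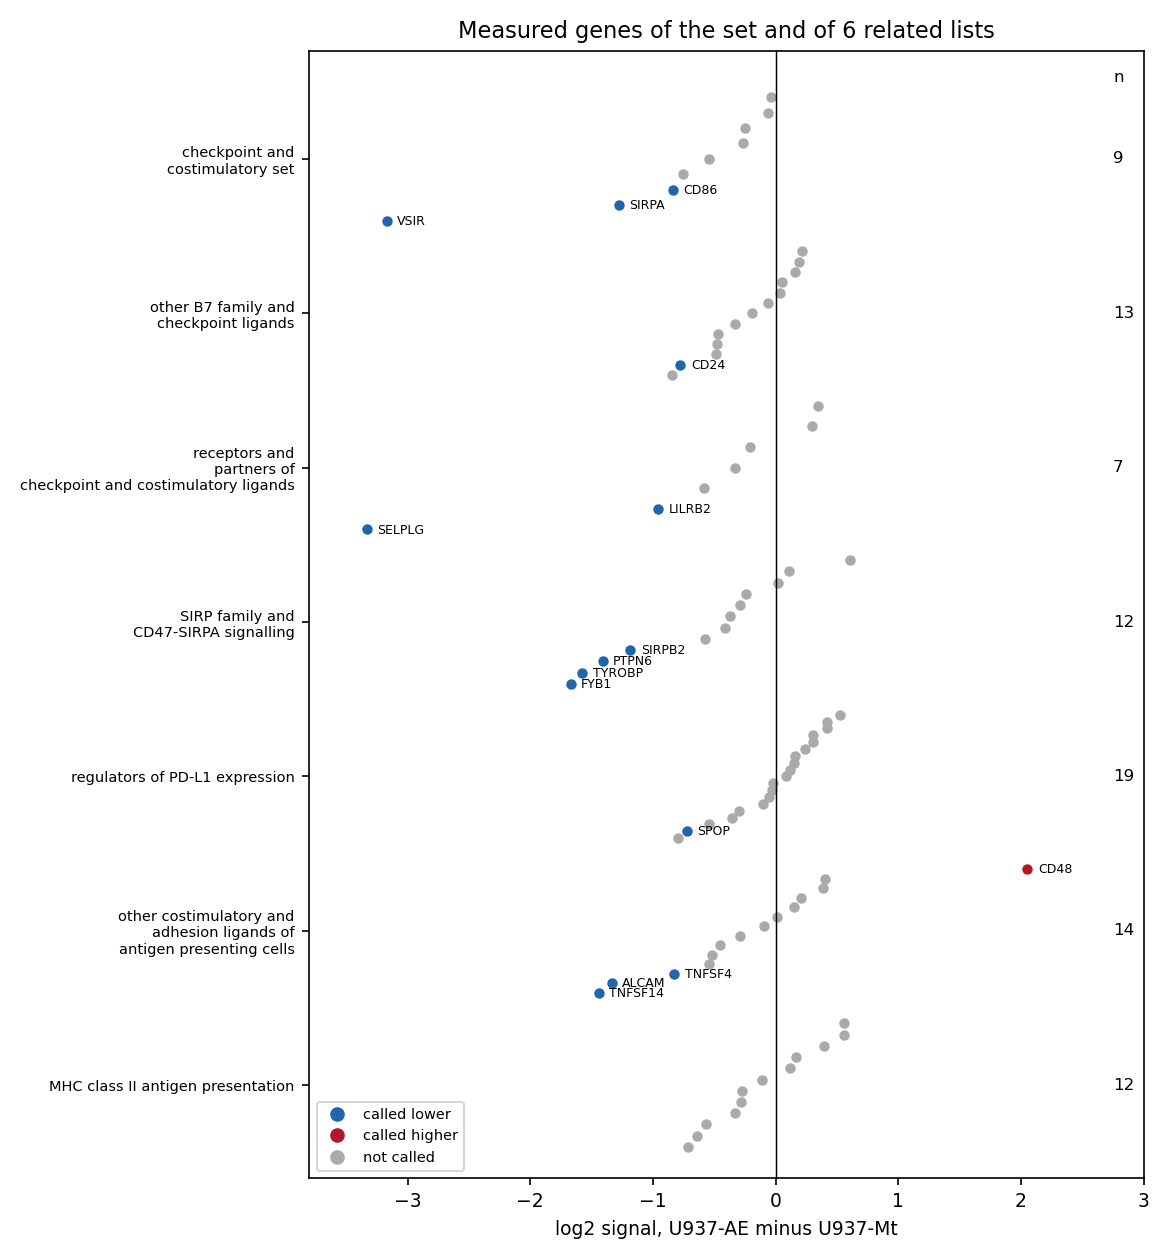
Log2 difference, U937-AE minus U937-Mt, of the 9 measured genes among the 10 and those of 6 related lists, with their number at the right. Each point is a gene, blue where called lower, red where called higher and grey where not called. VSIR and SELPLG lie furthest to the left and CD48 is the only gene called higher on the scale shown.

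Markers of other cell types were looked at in the same way. None of 8 T cell, 6 B cell, 7 dendritic cell, 6 erythroid and megakaryocytic and 8 non-blood markers was called. Of the T cell markers, 6 were at the floor on all arrays, CD3D and CD3E among them, and their summed signal was 470.0 and 407.1 on the U937-AE arrays against 516.0 and 610.8 on the U937-Mt arrays. Of the B cell markers 5 were measured, and their summed signal over all 6 was 2184.9 and 2068.4 in U937-AE cells, against 2134.8 and 1862.9 in U937-Mt cells. Of 6 NK cell markers, 1 was called lower: NKG7, a protein of cytotoxic granules, with 127.1 and 24.1 in U937-AE cells, against 882.8 and 1008.2 in U937-Mt cells. Its part in the values of the members was not tested. After scaling to the spike-ins 1 B cell marker and 1 erythroid or megakaryocytic marker were called higher, against 6.92% of all genes.

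The genes whose values ran most like those of VSIR over the 4 arrays were found by the Euclidean distance of mean-centred log2 signals among 10677 genes above the floor on all arrays. RASGRP2, an exchange factor for Rap GTPases, was nearest at 0.588, with 242.0 and 306.4 on the U937-AE arrays against 2149.3 and 2140.7 on the U937-Mt arrays. LYST, the lysosomal trafficking gene of Chediak-Higashi syndrome, followed at 0.642, CTSG, the neutrophil granule protease cathepsin G, at 0.678 and UNC93B1, a chaperone of endosomal Toll-like receptors, at 0.682. All of these were called lower, by 7.88-fold, 8.45-fold, 8.19-fold and 6.97-fold in this order. With 4 arrays of 2 pools, this likeness rests mainly on the size of the difference.

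**Figure D4:**
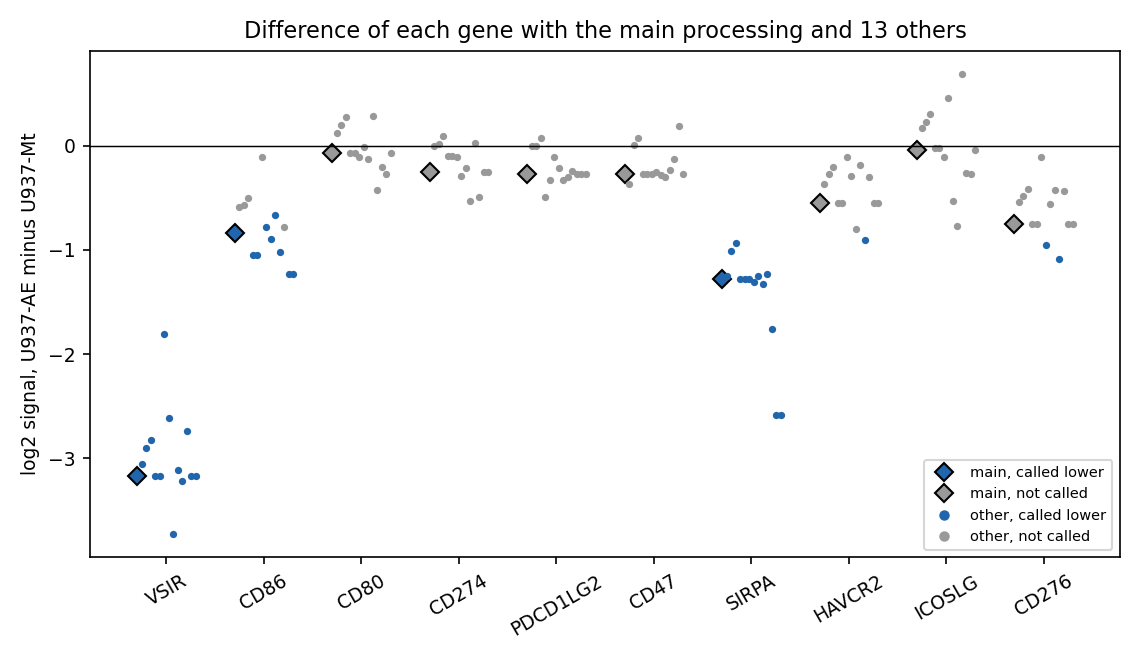
Log2 difference, U937-AE minus U937-Mt, of each gene with the processing described (diamonds) and 13 other settings (points), blue where called lower and grey where not. VSIR and SIRPA are blue throughout, between -3.73 and -1.80 for VSIR and between -2.58 and -0.94 for SIRPA, and CD86 is grey in some.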

How the data were processed

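Array values were taken as deposited: the authors scanned HG-U133 Plus 2.0 arrays and computed a linear signal intensity per probe set with GCOS (version not given in the sources used here). The 2% trimmed mean of each array was close to 500.1, and no further normalization was applied. Of 54675 probe sets, 62 were controls. The platform annotation gave 41097 probe sets 1 symbol (41043 updated through RefSeq tables, 54 kept), 1801 several and 11777 none; only the first were used. Signals were raised to each array's 50th percentile and taken as log2. The brightest probe set by mean log2 over the 4 arrays, taken before flooring, stood for its gene. Calls needed 1.5-fold in all 4 comparisons of a U937-AE with a U937-Mt array. Spread between arrays is that of copies of 1 pool; n is 1 pool for each line, and the number of arrays limits the precision. A fold against a pool whose arrays are both at the floor is a lower bound.

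Named were all members, up to 4 called genes in each direction of each related list with the largest difference, 9 genes picked by role, called neighbours and the 4 genes nearest to VSIR. PSAP, CDH23, SIRPB1, SIRPG, SIRPD, HLA-DRA and single marker genes were named after their values were seen. Members and lists were chosen with earlier results of these data known. Alternatives were quantile, median and spike-in scaling, other floors, each array left out, other call rules, limma with and without a replicate block, the methods' t-test, and other choices of probe set. The call rule and limma were tested on simulated data. Python 3.11.15 (pandas 2.3.3, matplotlib 3.10.9, numpy 2.4.6, scipy 1.17.1) and limma 3.58.1 under R 4.3.3 were used.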

Additional observations from a re-analysis of the deposited data

How the results depend on the processing

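VSIR and SIRPA were called lower in 18 of 19 other settings, the exception being the methods' t-test after Benjamini-Hochberg adjustment, CD86 in 11, CD276 in 4 and HAVCR2 in 1; the other 5 genes were called in none, and no gene was called higher in any. The log2 difference of VSIR was -1.80 with the floor at the 75th percentile, which lies above the U937-AE signals and so shortens the difference. Of the members, 3 genes and 8 probe sets were called lower. With arrays left out in turn the genes numbered 3 to 5: without U937-Mt replicate 2 there were 5, with HAVCR2 and CD276 added, and without U937-AE replicate 1 there were 4, with CD276 added, while the share of all genes called lower was 7.06% and 5.75% in these settings, against 4.0% with all arrays. The probe sets numbered 5 after scaling to the spike-ins, beside 1.09% of all probe sets. They numbered 3 with the floor at the 75th percentile, beside 1.23%, and 5 with 2-fold in all comparisons, beside 0.96%. The methods' t-test (unadjusted p under 0.05, fold above 2) called 5 probe sets and 2 of the genes. It called 1.43% of all probe sets and 1.95% of all genes lower. After Benjamini-Hochberg adjustment the methods' t-test called 0 genes and 0 probe sets, as it did over all genes and probe sets. With limma 3 genes and 8 probe sets were called lower, beside 5.8% of all genes and 4.9% of all probe sets. Both tests use the spread between copies of 1 pool only. CD86 was not called with quantile normalization (-0.59), with 1 median (-0.57), after scaling to the spike-ins (-0.50), or with the floor at the 75th percentile (-0.10).

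With the array number as a replicate block, limma called 4 genes and 9 probe sets lower, beside 7.25% of all genes and 7.19% of all probe sets. The numbers only name the arrays: deviations of same-numbered arrays correlated at 0.049 over 12934 measured genes. Signals near the floor limit what can be said of a gene. They include all those of CD274 and PDCD1LG2 and the U937-AE signals of CD86. For VSIR they include the U937-AE signals of 225372_at and the first U937-AE signal of 225373_at.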

Other observations

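HAVCR2 had a second probe set, 1555628_a_at, with 148.8 and 75.2 on the U937-AE arrays against 55.2 and 38.5 on the U937-Mt arrays. Without the floor this was a log2 difference of 1.20 in the direction opposite to that of 1554285_at, and with the floor it was -0.11. Only the first U937-AE array exceeded its floor, so this probe set gives no settled direction.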
